A study of Mus musculus with 6 samples.

Results

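The genes described here are 10 genes of blood vessels and vessel growth, chosen by name. They include the vessel markers Pecam1 and Esam, the barrier genes Cldn5 and Slco1a4, and the VEGF ligand Vegfa with its receptors Kdr and Flt1. The norrin receptor Fzd4, its co-receptor Tspan12 and the angiopoietin receptor Tek complete the set. All 10 were present among the 11339 genes for which retinal expression values were deposited. The question put to the data was how vessel markers and the VEGF and norrin pathways compare between *Mll1KO* and WT retinas.

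Whole retinas of C57Bl6/J mice at P14 were profiled by RNA sequencing in 6 libraries, 3 from *Mll1KO* and 3 from WT, each made from pooled retinas. The *Mll1KO* mice carried MLL1 fl/fl alleles and Chx10-Cre, and the other group was labelled WT with no floxed allele or Cre named, so that loss of MLL1 and presence of Cre cannot be told apart. Chx10-Cre acts in retinal progenitors, which give rise to retinal neurons and Müller glia, whereas endothelial cells, pericytes, astrocytes and microglia enter the retina from other lineages. Library depth, recovered from the deposited values, ran from 17961097 reads in *Mll1KO* c to 23836033 reads in WT a.

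Retinal vessels grow in from the optic nerve head and, in the mouse, spread over the surface and then dive into the deeper layers during the first weeks after birth. Neurons, astrocytes and Müller glia release VEGF-A, which acts on endothelial cells mainly through the kinase receptor VEGFR2, encoded by Kdr, while VEGFR1, encoded by Flt1, binds the same ligand tightly and acts largely as a decoy. Norrin, a ligand made by Müller glia, acts on endothelial cells through Frizzled-4, LRP5 and TSPAN12 to switch on beta-catenin signalling, which is needed for the deep vessel layers and for the blood-retina barrier.

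Kmt2a, the gene that encodes MLL1, was read first as a check of the labels. Its level, in reads scaled to gene length in kilobases and to library depth (RPKM), was 36.1, 36.9 and 34.6 in WT a, b and c and 22.9, 20.4 and 22.3 in *Mll1KO* a, b and c. All 3 *Mll1KO* libraries lay below all 3 WT libraries, as the labels require. The *Mll1KO* mean was 60.9% of the WT mean, with a log2 fold change of -0.69 ± 0.0499 (SE) and a limma adjusted p of 2.77e-05. Fold changes here and below are differences of group means on the log2(RPKM + 1) scale, *Mll1KO* minus WT, and a gene is called when its p, adjusted over all 11339 genes, is under 0.05. The level counts reads over the whole gene, including exons outside the floxed part and cells that never expressed Cre.

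Of the 10 vessel genes, 5 were called by limma, against 23.3% of all 11339 genes. Kdr, Cldn5 and Vegfa were lower in *Mll1KO* (14.5% of all genes were called lower), and Slco1a4 and Flt1 were higher (8.81% of all genes). In all 10 genes the 3 values of each group lay apart without overlap, 6 lower and 4 higher in *Mll1KO*, while this held for 41.1% of all genes. The median log2 fold change of the 10 genes was -0.17, beside -0.03 over all genes. On the deposited scale the receptor Kdr fell while Flt1 rose, and the tight junction gene Cldn5 fell while the transporter Slco1a4 rose. If libraries are scaled to an equal sum over rod genes, 1 of the 10 genes is called higher (Slco1a4) and 6 lower, and Flt1 is not called. In whole-retina RNA, fewer cells of a type and less RNA per cell cannot be told apart. The p-values measure the spread between these 3 samples per group.

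**Figure D1:**
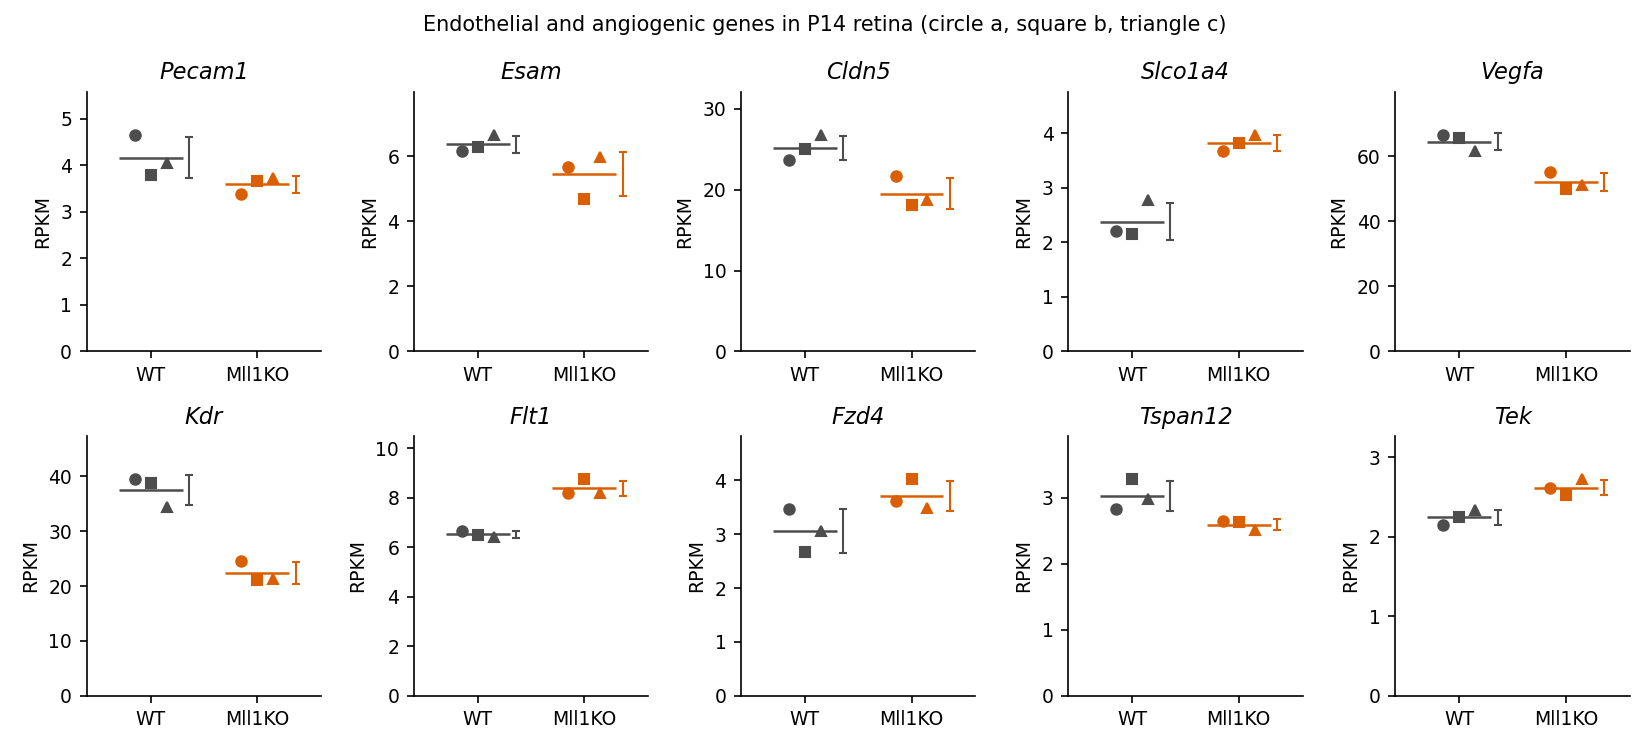
Expression of the 10 vessel genes in RPKM (vertical axes, each starting at 0) in WT and Mll1KO retina at P14. Points are single libraries, horizontal lines are group means and bars are the SD (n = 3); all 3 Mll1KO points lie below all 3 WT points in 6 genes and above them in 4, and the change in Kdr, from a mean of 37.6 to 22.3 RPKM, is the deepest fall.

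The levels spanned a wide range. In WT, Vegfa had the highest mean (64.5 ± 2.64 RPKM, SD, n = 3), followed by Kdr (37.6 ± 2.76) and Cldn5 (25.2 ± 1.52), and the values of these 3 genes did not overlap with their neighbours in the order. Flt1 and Esam, both near 6 RPKM, overlapped in their values, as did Fzd4 with Tspan12 and Slco1a4 with Tek, the lowest pairs. In *Mll1KO* the order changed at several places. The Kdr values of *Mll1KO* b and c came down into the range of Cldn5, and Slco1a4 moved up to the levels of Fzd4 and Pecam1. Per unit of length, Kdr transcripts were thus far more abundant than those of the general endothelial marker Pecam1, and the ratio of Kdr to Pecam1 was 8.49, 10.2 and 8.50 in WT a, b and c and 7.28, 5.76 and 5.69 in *Mll1KO* a, b and c. In the retina Kdr is known to be expressed by neurons as well as by endothelial cells.

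Among the general vessel markers, Pecam1, which encodes the endothelial adhesion protein CD31, was at 4.65, 3.79 and 4.05 RPKM in WT a, b and c and at 3.38, 3.66 and 3.73 RPKM in *Mll1KO* a, b and c. The groups touched closely, WT b lying only just above *Mll1KO* c, and WT a standing highest. The *Mll1KO* mean was 86.3% of the WT mean, and the log2 fold change of -0.17 (95% interval -0.32 to -0.01) did not pass the test (limma adjusted p = 0.114). Without WT a it was -0.10 (limma adjusted p = 0.313). Esam, an adhesion protein of endothelial junctions, was at 6.16, 6.28 and 6.64 RPKM in WT and at 5.68, 4.69 and 5.98 RPKM in *Mll1KO*, in the order a, b, c used throughout. Mll1KO b was the lowest library and the other 2 *Mll1KO* libraries sat close under WT. The Esam log2 fold change of -0.20 (-0.37 to -0.02) did not pass the test either (limma adjusted p = 0.0945), and was -0.11 without *Mll1KO* b (limma adjusted p = 0.256).

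The wider list of endothelial identity genes held 33 genes, of which 23 were measured. It included Pecam1, Esam, Cldn5, Tek, Flt1 and Kdr; 1 gene was called higher (Flt1), 4 were called lower and 18 were not called. These are 4.35% and 17.4% of the list, beside 8.81% and 14.5% of all genes. Leaving out *Mll1KO* c or WT c gave 2 called higher. The counts also depend on scaling, with 4 higher and 4 lower under median-ratio, TMM or upper-quartile factors, and 0 higher and 18 lower on an equal rod sum. Of all 11339 genes, median-ratio factors called 1276 higher and 1126 lower, and an equal rod sum 230 higher and 9401 lower. The median log2 fold change of the list was -0.16, beside -0.03 over all genes. Vwf, the von Willebrand factor stored in endothelial granules, was at 3.12, 3.03 and 3.02 RPKM in WT and at 2.07, 2.23 and 2.52 RPKM in *Mll1KO*. Its WT values were nearly equal, and every *Mll1KO* value lay below them (log2 fold change -0.31 ± 0.0612, SE, limma adjusted p = 0.00584). Podxl, a sialomucin of the luminal surface that neurons also make, was the most abundant gene of the list, at 24.8% of its summed level, and its values overlapped between groups (55.0, 52.0 and 48.5 RPKM in WT, 50.04, 44.0 and 49.3 RPKM in *Mll1KO*). The summed level of the 23 genes was 222, 213 and 210 RPKM in WT and 192, 179 and 188 RPKM in *Mll1KO*, so that the *Mll1KO* mean was 86.6% of WT with no overlap. More than 0.5 of this fall came from Kdr, and without Kdr the sum of the other 22 genes was 92.3% of WT. The 10 listed markers without values, Erg and Emcn among them, were not analysed here.

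Of 18 listed genes of the blood-retina barrier and its transporters, 15 were measured, 5 were called higher and 4 lower, and the median log2 fold change was 0.04. The shares were 33.3% and 26.7%, beside 8.81% and 14.5% of all genes. On an equal rod sum the counts were 2 and 9 of the 15, beside 230 and 9401 of all 11339 genes. Cldn5 encodes claudin-5, the main claudin of tight junctions between endothelial cells of the brain and retina. It was at 23.7, 25.1 and 26.7 RPKM in WT and at 21.7, 18.1 and 18.7 RPKM in *Mll1KO*. Mll1KO a came nearest to the WT range, and the lowest WT value, in WT a, still lay above it. It fell to 77.5% of the WT mean, with a log2 fold change of -0.35 ± 0.0688 (SE, limma adjusted p = 0.00556).

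Slco1a4 encodes an organic anion transporter of the endothelial membrane and lies in a cluster of related transporter genes. It was at 2.21, 2.15 and 2.77 RPKM in WT and at 3.67, 3.82 and 3.96 RPKM in *Mll1KO*. The 3 *Mll1KO* values were close to each other and well above WT c, the highest WT library. It rose to 161% of the WT mean, the largest rise among the 10 genes, with a log2 fold change of 0.52 ± 0.0731 (SE, limma adjusted p = 0.00103) from 164 to 330 reads per library. The ratio of Slco1a4 to Cldn5, which no scaling of the libraries can change, was 0.0934, 0.0859 and 0.104 in WT and 0.170, 0.212 and 0.211 in *Mll1KO*.

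Transporters and junction genes of this list were found on both sides. Slc38a5, a glutamine transporter known as a norrin target in retinal vessels, was at 4.23, 4.33 and 3.90 RPKM in WT and at 2.62, 2.45 and 2.71 RPKM in *Mll1KO*. It fell to 62.4% of WT with a wide gap between groups (log2 fold change -0.52, limma adjusted p = 0.000257). Slc22a8, an organic anion transporter, fell to 79.7% of WT (log2 fold change -0.27, limma adjusted p = 0.0145). Cgn, the junction protein cingulin of epithelial and endothelial cells, rose from a mean of 4.69 to 6.70 RPKM (log2 fold change 0.44, limma adjusted p = 0.000594). Slc16a1, the lactate transporter MCT1, rose from 40.4 to 50.6 RPKM (log2 fold change 0.32, limma adjusted p = 0.00146), a rise absent on an equal rod sum (0.02, limma adjusted p = 0.712). Bsg, its partner basigin, made up 63.3% of the summed level of the list, at 414 RPKM in WT and 475 RPKM in *Mll1KO*. The Bsg log2 fold change was 0.20 (limma adjusted p = 0.0124), and -0.10 when libraries are scaled to an equal rod sum. This call was lost without *Mll1KO* c (0.20, limma adjusted p = 0.0509) or WT b (0.18, limma adjusted p = 0.0555). Slc16a1 and Bsg are also made by photoreceptors, Müller glia and pigment epithelium. Slc2a1, the glucose transporter GLUT1, overlapped between groups at 103, 98.4 and 114 RPKM in WT and 115, 115 and 108 RPKM in *Mll1KO*. Its log2 fold change of 0.10 turned to -0.20 on the equal rod sum, and was 0.05 without WT b and 0.16 without WT c.

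**Figure D2:**
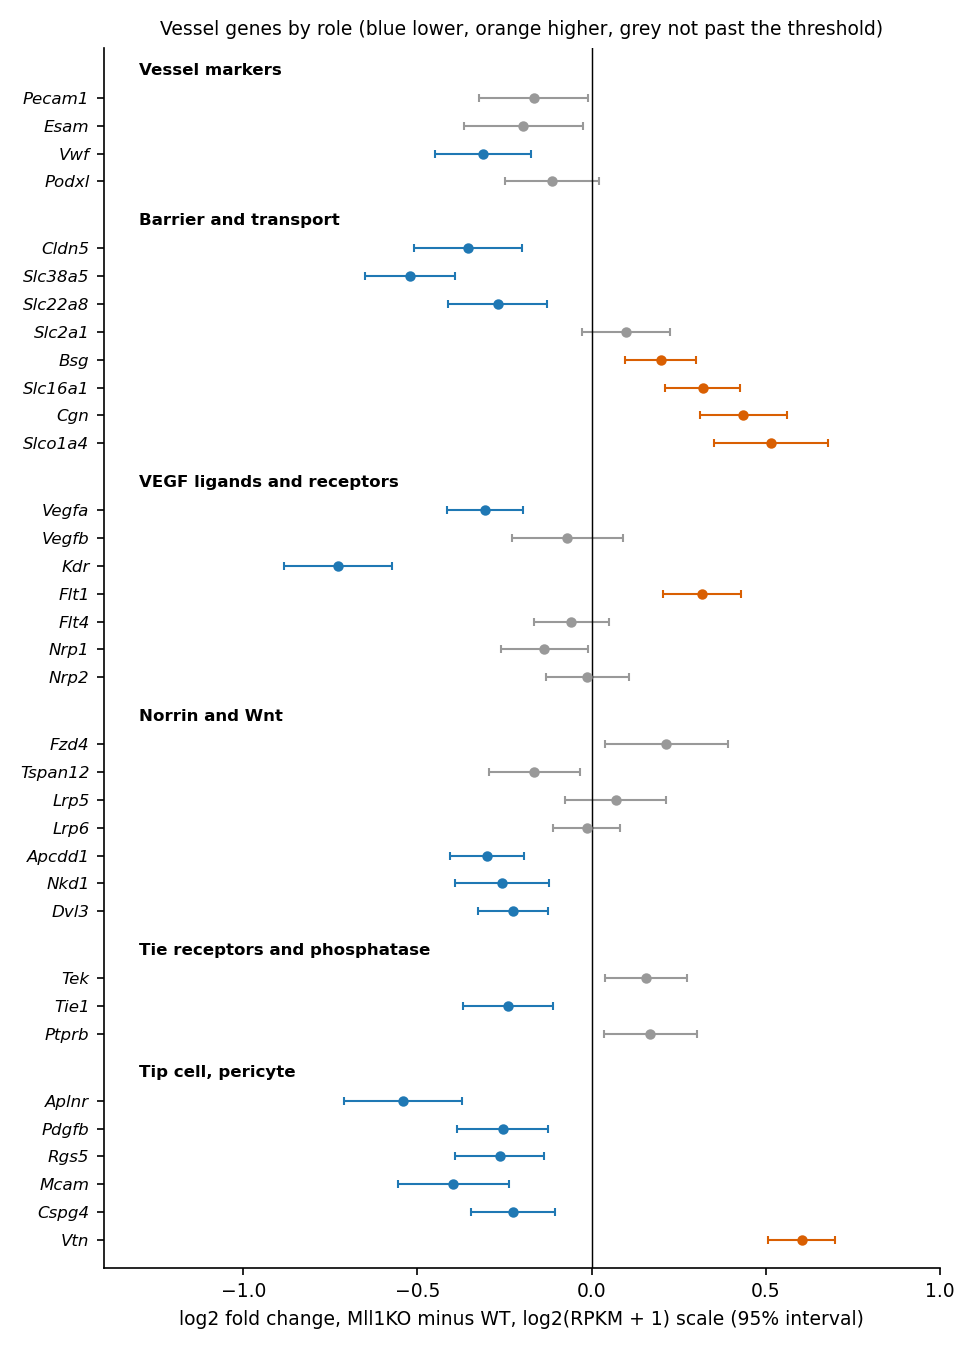
Log2 fold change of Mll1KO against WT (horizontal axis, log2(RPKM + 1) scale) for vessel genes grouped by role (vertical axis), with 95% intervals from limma (3 libraries per group). Blue genes were called lower, orange genes higher and grey genes did not pass an adjusted p of 0.05; Kdr at -0.73 and Flt1 at 0.32 lie on opposite sides of 0, as do Cldn5 at -0.35 and Slco1a4 at 0.52.

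In the VEGF system, 7 of 10 listed ligands and receptors were measured, with 2 called lower and 1 higher (28.6% and 14.3%, beside 14.5% and 8.81% of all genes). On an equal rod sum, 6 of the 7 were called lower and 0 higher, beside 9401 and 230 of all 11339 genes. Vegfa was at 66.4, 65.5 and 61.5 RPKM in WT and at 55.1, 49.9 and 51.0 RPKM in *Mll1KO*. WT c was the lowest WT library and *Mll1KO* a the highest of its group, and 3930 to 6796 reads per library stood behind these values. Vegfa fell to 80.6% of the WT mean, with a log2 fold change of -0.31 ± 0.0490 (SE, limma adjusted p = 0.00205). Vegfb, a ligand of VEGFR1, overlapped between groups, with means of 28.3 RPKM in WT and 26.9 RPKM in *Mll1KO* (log2 fold change -0.07, 95% interval -0.23 to 0.09, and 0.01 without WT c). Vegfc, Pgf and Vegfd were not analysed here.

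Kdr encodes VEGFR2, the receptor that carries most of the VEGF-A signal into endothelial cells. It was at 39.4, 38.84 and 34.4 RPKM in WT and at 24.6, 21.1 and 21.2 RPKM in *Mll1KO*. The *Mll1KO* libraries formed a tight low group with *Mll1KO* a slightly above the others, and the gap to WT was wider than the spread within either group. The *Mll1KO* mean was 59.4% of WT, the largest fall among the 10 genes, with a log2 fold change of -0.73 ± 0.0695 (SE, 95% interval -0.88 to -0.57, limma adjusted p = 0.000115). Flt1 encodes VEGFR1, which exists in membrane and secreted forms that gene-level values do not separate. It was at 6.67, 6.49 and 6.41 RPKM in WT and at 8.20, 8.74 and 8.19 RPKM in *Mll1KO*. The WT values differed little from each other, and each *Mll1KO* library was above all of them. The *Mll1KO* mean was 128% of WT, with a log2 fold change of 0.32 ± 0.0501 (SE, 95% interval 0.20 to 0.43, limma adjusted p = 0.00190). The Flt1 call was lost on an equal rod sum (0.05, limma adjusted p = 0.424) and with only the 3 libraries poor in pigment genes, WT b and *Mll1KO* a and c, an alternative chosen after seeing the data (0.30, limma adjusted p = 0.0942).

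The ratio of Kdr to Flt1 within a library puts the receptor pair side by side, whatever the scaling. It was 5.91, 5.98 and 5.37 in WT and 3.001, 2.41 and 2.59 in *Mll1KO*. The mean ratio fell from 5.75 ± 0.338 to 2.67 ± 0.301 (SD, n = 3). The ratio of Vegfa to Kdr was 1.68, 1.69 and 1.79 in WT and 2.24, 2.36 and 2.40 in *Mll1KO*, so that the ligand transcript fell less than that of its receptor. The other receptors of the list did not pass the test. Flt4, the receptor of lymphatic and tip cell endothelium, was at a mean of 1.75 RPKM in WT and 1.64 RPKM in *Mll1KO*. The co-receptor neuropilin gene Nrp1 was at 3.54 RPKM in WT and 3.13 RPKM in *Mll1KO* (log2 fold change -0.14, limma adjusted p = 0.109). Nrp2, the other neuropilin gene, was at 3.31 RPKM in WT and 3.27 RPKM in *Mll1KO*. Its log2 fold change was -0.01 (limma adjusted p = 0.899), or 0.01 with median-ratio scaling.

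Of the norrin and Wnt signalling list, 16 of 23 genes were measured, with none called higher and 3 called lower by limma, and a median log2 fold change of -0.06. The share called lower was 18.8%, near the 14.5% of all genes. An equal rod sum gave 15 lower, the other scalings and limma-voom 1 higher, and the 3 libraries poor in pigment genes none in either direction. On an equal rod sum, 9401 of all 11339 genes were called lower. Norrin itself was not analysed here. Fzd4, the receptor of norrin, was at 3.47, 2.66 and 3.06 RPKM in WT and at 3.61, 4.02 and 3.49 RPKM in *Mll1KO*. The groups met almost without a gap, WT a lying just under *Mll1KO* c, and WT b was the lowest library. The log2 fold change of 0.21 (95% interval 0.04 to 0.39, and -0.02 on an equal rod sum) did not pass the test (limma adjusted p = 0.0760) with 194 to 311 reads per library. Without WT a, the highest WT library, it was 0.29 and passed (limma adjusted p = 0.0352), whereas it was 0.14 without WT b (limma adjusted p = 0.246) and 0.17 without *Mll1KO* b (limma adjusted p = 0.206).

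Tspan12 encodes the tetraspanin that clusters Frizzled-4 and strengthens its response to norrin. It was at 2.83, 3.27 and 2.98 RPKM in WT and at 2.64, 2.63 and 2.50 RPKM in *Mll1KO*. WT b stood above the rest and the *Mll1KO* values were narrow, all just below WT a. The log2 fold change of -0.16 (95% interval -0.29 to -0.03) did not pass the test (limma adjusted p = 0.0679). The remaining receptors of this pathway, Lrp5 and Lrp6, overlapped between groups, with Lrp5 at 3.90 and 4.14 RPKM (log2 fold change 0.07, or -0.17 on an equal rod sum) and Lrp6 at 11.7 and 11.6 RPKM (-0.01, or 0.02 with median-ratio scaling) in WT and *Mll1KO*. Ctnnb1, which encodes beta-catenin and was the most abundant gene of the list, was at 87.2 and 84.6 RPKM (log2 fold change -0.04, limma adjusted p = 0.572). Dvl1, next in abundance over the 6 libraries at 28.0 and 27.8 RPKM, overlapped between groups (log2 fold change -0.01, or 0.03 with median-ratio scaling).

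The 3 genes called lower in this list were Apcdd1, Nkd1 and Dvl3, and with the 3 libraries poor in pigment genes none of them passed, with log2 fold changes of -0.27, -0.19 and -0.25 (limma adjusted p = 0.0801, 0.293 and 0.105). That setting has 1 WT library against 2, so a lost call there does not show that a fall went away. Apcdd1, a membrane-bound Wnt inhibitor that is a beta-catenin target in retinal vessels, was at 21.8, 20.8 and 20.2 RPKM in WT and at 17.6, 16.3 and 16.5 RPKM in *Mll1KO*. All *Mll1KO* values lay below WT c, the lowest WT library (log2 fold change -0.30 ± 0.0477, SE, limma adjusted p = 0.00199). Nkd1, an intracellular feedback inhibitor, fell from 9.40 to 7.72 RPKM (log2 fold change -0.26, limma adjusted p = 0.0139). Dvl3, a dishevelled adaptor used by many Frizzled receptors, fell from 28.0 to 23.8 RPKM (log2 fold change -0.23, limma adjusted p = 0.00621). These genes are active in many retinal cell types.

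Tek encodes TIE2, the angiopoietin receptor of endothelial cells. It was at 2.15, 2.24 and 2.34 RPKM in WT and at 2.61, 2.52 and 2.72 RPKM in *Mll1KO*, from 209 to 287 reads per library. Both groups were narrow and WT c lay a little under *Mll1KO* b. The log2 fold change of 0.16 (95% interval 0.04 to 0.27, and -0.06 on an equal rod sum) fell short of the threshold (limma adjusted p = 0.0558). It passed when libraries were scaled by median ratio (0.18, limma adjusted p = 0.0305), by TMM (0.18, limma adjusted p = 0.0324) or by upper quartile (0.18, limma adjusted p = 0.0338). Tie1, its orphan partner receptor, was lower in *Mll1KO*, at 4.48, 4.80 and 4.81 RPKM in WT and 3.75, 3.64 and 4.09 RPKM in *Mll1KO*. No values overlapped (log2 fold change -0.24 ± 0.0576, SE, limma adjusted p = 0.0153), though the call was lost without *Mll1KO* b (-0.21, limma adjusted p = 0.0522) or WT b (-0.23, limma adjusted p = 0.0594). The ratio of Tek to Tie1 was 0.479, 0.467 and 0.486 in WT and 0.695, 0.694 and 0.665 in *Mll1KO*. Ptprb, the phosphatase VE-PTP that restrains TIE2, was at a mean of 4.34 RPKM in WT and 5.00 RPKM in *Mll1KO* (log2 fold change 0.17, limma adjusted p = 0.0696, and -0.08 on an equal rod sum), and passed without WT c (0.22, limma adjusted p = 0.0359). It also passed with median-ratio, TMM and upper-quartile scaling (limma adjusted p = 0.0408, 0.0416 and 0.0406) and with limma-voom (limma adjusted p = 0.0229). Of the 7 genes listed for this system, these 3 were measured and Tie1 alone was called (33.3% lower, beside 14.5% of all genes), while median-ratio, TMM and upper-quartile factors each called 2 higher and limma-voom 1, and the angiopoietin genes were not analysed here.

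Of the list of tip cell and Notch genes, 9 of 14 genes were measured, with none called higher and 2 called lower by limma (22.2%, beside 14.5% of all genes). On an equal rod sum, 8 of the 9 were called lower, beside 9401 of all 11339 genes. Aplnr, the apelin receptor of sprouting and venous endothelium, was at 3.77, 4.31 and 3.58 RPKM in WT and at 2.57, 2.07 and 2.42 RPKM in *Mll1KO*. It fell to 60.6% of WT (log2 fold change -0.54, limma adjusted p = 0.000956), a fall about as deep as that of Kdr and Slc38a5, with WT b highest and *Mll1KO* b lowest. Pdgfb, the growth factor by which endothelial cells recruit pericytes, fell from 3.15 to 2.48 RPKM (log2 fold change -0.25, limma adjusted p = 0.0122). Jag1, the most abundant gene of the list, overlapped between groups, with 23.6 RPKM in *Mll1KO* a above all others, and Notch1 and Hey1 also overlapped.

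Pericyte and smooth muscle genes, the mural cells of the same vessels, were measured for 8 of 17 listed genes. Of these, 4 were called lower and 1 higher (50% and 12.5%, beside 14.5% and 8.81% of all genes). The count called lower was 2 without WT a, 1 with the 3 libraries poor in pigment genes and 7 on an equal rod sum. The equal rod sum called 9401 of all 11339 genes lower. Rgs5, a regulator of G protein signalling typical of pericytes, was at 32.7, 29.7 and 29.5 RPKM in WT and at 24.9, 24.0 and 27.1 RPKM in *Mll1KO*, without overlap (log2 fold change -0.26, limma adjusted p = 0.00911). Mcam, the adhesion protein CD146, fell to 71.8% of WT (log2 fold change -0.40, limma adjusted p = 0.00373). Cspg4, the proteoglycan NG2, fell from 1.86 to 1.448 RPKM (log2 fold change -0.23, limma adjusted p = 0.0156). The Cspg4 call was lost without WT a (-0.19, limma adjusted p = 0.0588) or *Mll1KO* c (-0.20, limma adjusted p = 0.0597). Vtn, which encodes the adhesive protein vitronectin, went against the others and rose from 189 to 288 RPKM (log2 fold change 0.60, limma adjusted p = 2.53e-05). It made up 81.0% of the summed level of the list, so the rise of this sum to 132% of WT reflects Vtn. Which cells made the Vtn transcripts was not tested. Acta2, the smooth muscle actin, was uneven in WT, at 14.5, 3.21 and 22.3 RPKM, against 3.99, 3.56 and 3.34 RPKM in *Mll1KO*. Its log2 fold change of -1.31 (0.15 without the 3 libraries named below as rich in pigment genes) did not pass (limma adjusted p = 0.0771) and was -2.04 without WT b (limma adjusted p = 9.38e-05).

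Vegfa is itself a target of the hypoxia response, in which the HIF factors act on low oxygen. Of this list 22 of 25 genes were measured, with 4 called higher and 3 lower, Vegfa among the latter, and a median log2 fold change of -0.01. These are 18.2% and 13.6% of the list, beside 8.81% and 14.5% of all genes. An equal rod sum gave 1 higher and 17 lower of the 22, beside 230 and 9401 of all 11339 genes. Ndrg1, a stress-induced gene, was at 79.0, 75.3 and 66.2 RPKM in WT and at 40.3, 44.4 and 42.7 RPKM in *Mll1KO*, a fall to 57.7% (log2 fold change -0.78, limma adjusted p = 5.36e-05). Pfkfb3, which drives glycolysis, fell from 4.90 to 3.35 RPKM (log2 fold change -0.45, limma adjusted p = 0.00853). Epas1, which encodes HIF-2alpha, rose from 51.0 to 62.7 RPKM (log2 fold change 0.29, limma adjusted p = 0.00288, and no rise on an equal rod sum, at -0.0047). Ddit4, a stress-induced inhibitor of mTORC1, rose from 58.6 to 85.1 RPKM (log2 fold change 0.54, limma adjusted p = 0.00556), with 0.24 on an equal rod sum (limma adjusted p = 0.0539). Hif3a, the most raised gene of the list, was at 1.84, 1.66 and 2.04 RPKM in WT and at 2.32, 4.38 and 3.82 RPKM in *Mll1KO* (log2 fold change 0.63, limma adjusted p = 0.0133), a call lost without *Mll1KO* c (0.57, limma adjusted p = 0.0541). Ldha, the most abundant gene of the list, overlapped between groups.

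Among other angiogenic ligands and inhibitors, 19 of 26 genes were measured, with 3 called higher and 5 lower (15.8% and 26.3%, beside 8.81% and 14.5% of all genes) and a median log2 fold change of 0.10. Leaving out single libraries gave 2 to 5 called higher and 2 to 4 lower, and median-ratio, TMM and upper-quartile factors gave 3 lower. An equal rod sum gave 2 higher and 10 lower of the 19, beside 230 and 9401 of all 11339 genes. Of the most abundant genes of the list, Sparc (178 RPKM in WT, log2 fold change 0.10, or -0.20 on an equal rod sum) and Sema3f (68.7 RPKM, 0.11, or -0.19 on an equal rod sum) did not pass, though Sparc did without WT c (0.15, limma adjusted p = 0.0494) and Sema3f with limma-voom (limma adjusted p = 0.0498) and the 3 scaling factors (limma adjusted p from 0.0205 to 0.0250). Slit2, a guidance ligand for axons and endothelial tip cells, was at 15.7, 17.5 and 17.0 RPKM in WT and at 9.92, 10.6 and 10.1 RPKM in *Mll1KO*. The *Mll1KO* libraries were nearly equal to each other at 61.0% of WT (log2 fold change -0.66, limma adjusted p = 4.14e-05). Plxnd1, an endothelial semaphorin receptor, fell from 6.96 to 5.20 RPKM (log2 fold change -0.36, limma adjusted p = 0.00377). Efnb2, the arterial ephrin, fell from 9.72 to 7.62 RPKM (log2 fold change -0.32, limma adjusted p = 0.0165), a call lost without WT b (-0.28, limma adjusted p = 0.0654). Adamts1, an anti-angiogenic protease, rose from 6.51 to 9.81 RPKM (log2 fold change 0.54, limma adjusted p = 0.00569). Timp3, a matrix-bound protein that blocks VEGF binding to VEGFR2, rose from 7.34 to 10.6 RPKM (log2 fold change 0.47, limma adjusted p = 0.00809). Cxcl12, a chemokine, was at 1.97 RPKM in WT and 2.71 RPKM in *Mll1KO* (log2 fold change 0.32, limma adjusted p = 0.0189). Without *Mll1KO* a, *Mll1KO* c, WT a or WT b, the Cxcl12 log2 fold change was 0.27, 0.32, 0.32 and 0.26. The call was lost each time (limma adjusted p = 0.0531, 0.0603, 0.0600 and 0.0723), and on an equal rod sum (0.11, limma adjusted p = 0.205). The ratios above were chosen after the values were seen. Over the 9 vessel lists together, 114 of 163 listed genes were measured, 14 were called higher and 24 lower (12.3% and 21.1%, beside 8.81% and 14.5% of all genes). With median-ratio or TMM factors these counts were even, at 20 and 20. Of all 11339 genes, median-ratio factors called 1276 higher and 1126 lower, and TMM factors 1257 and 1163.

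Profiles over the 6 libraries were compared by Pearson r, as a description. Beyond the chosen genes, the genes most like the mean profile of the endothelial list were Fam206a (r = 0.997), Nrgn (0.997), Gm16185 (0.994), Ywhab (0.992) and Pax6 (0.992). Nrgn and Pax6 are neuronal genes, and both fell in *Mll1KO* (log2 fold change -0.50 and -0.34, limma adjusted p = 0.00131 and 0.00153). The genes most like Vegfa were Pcbp1 (r = 0.998), Ankrd13b (0.998), Fam184b (0.997), Trp53i11 (0.997) and Shmt2 (0.996), and all 5 were called lower, with log2 fold changes of -0.17, -0.24, -0.30, -0.28 and -0.29. Some of these calls were lost with 1 library left out, though the log2 fold changes stayed about as large. Fam206a, at -0.17 with all libraries, was lost without any one of the 6 (-0.15 to -0.19, limma adjusted p from 0.0737 to 0.116). Gm16185, at -0.24, was lost without *Mll1KO* b, WT a or WT c (-0.21 to -0.22, limma adjusted p from 0.0652 to 0.0728). Pcbp1 was lost without *Mll1KO* c (-0.16, limma adjusted p = 0.0591) or WT b (-0.16, limma adjusted p = 0.0562). Among the 10 vessel genes, Kdr was most like Vegfa (r = 0.995) and Slco1a4 least (r = -0.973). With 3 libraries per group, every such r mostly reflects the difference between the groups.

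Markers of other retinal cells moved with genotype as well, and their part in the results on vessel genes was not tested. Over all genes, 8.81% were called higher and 14.5% lower, and an equal rod sum called 230 of the 11339 higher and 9401 lower. Of 10 Müller glia markers, 6 were called higher and 1 lower, or 4 and 4 on an equal rod sum, and their summed level was 1443, 1419 and 1568 RPKM in WT and 1832, 1918 and 1883 RPKM in *Mll1KO*. Glul, their glutamine synthetase and the most abundant of the list, rose from 526 to 729 RPKM (log2 fold change 0.47, limma adjusted p = 0.000317), while Vim, their intermediate filament, fell from 117 to 83.8 RPKM (log2 fold change -0.47, limma adjusted p = 8.29e-05). Of 6 measured astrocyte markers, 3 were called higher, or 1 with the 3 libraries poor in pigment genes, and Gfap, made by astrocytes and by stressed Müller glia, went from 3.81, 4.40 and 4.16 RPKM in WT to 10.2, 8.50 and 8.42 RPKM in *Mll1KO* (log2 fold change 0.97, limma adjusted p = 4.26e-05). The astrocyte list summed to 57.5, 58.1 and 65.2 RPKM in WT and 69.9, 73.8 and 69.7 RPKM in *Mll1KO*. Slc1a2, the most abundant, made up 41.8% of this sum. Which cells made these transcripts was not tested. Of 5 measured microglia markers, 1 was called higher and none lower, or 0 and 2 on an equal rod sum, and the list summed to 25.6, 26.2 and 25.2 RPKM in WT and 25.7, 28.2 and 28.8 RPKM in *Mll1KO*. Of 4 measured genes of the fibroblast list, which shares Pdgfra with the astrocyte list, 2 were called higher. Col1a2 rose from 1.95 to 5.72 RPKM (log2 fold change 1.19, limma adjusted p = 1.32e-05). Fn1, the most abundant, rose from 23.0 to 32.9 RPKM (log2 fold change 0.50, limma adjusted p = 0.000141). That list summed to 31.2, 28.5 and 28.8 RPKM in WT and 42.3, 44.2 and 42.7 RPKM in *Mll1KO*, with Fn1 at 76.9% of the sum.

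Haemoglobin transcripts, a sign of blood left in the vessels, varied widely within groups. The 4 genes summed to 101, 80.9 and 207 RPKM in WT and 134, 178 and 212 RPKM in *Mll1KO*, so that WT c was nearly as high as *Mll1KO* c, and none was called. For Hbb-bs, the most abundant, the log2 fold change was 0.58 (limma adjusted p = 0.177), and 0.97 without WT c (limma adjusted p = 0.008). All 4 genes were called higher without WT c, so the result for this list turns on 1 library. Pigment epithelium genes singled out 3 libraries. Their sum was 203, 114 and 308 RPKM in WT and 98.7, 214 and 102 RPKM in *Mll1KO*, with Ttr the most abundant gene, and Pmel, the melanosome fibril protein, was at 57.1, 15.1 and 99.4 RPKM in WT and 9.37, 34.0 and 10.98 RPKM in *Mll1KO*. None of the 5 measured pigment epithelium genes was called with all libraries. Leaving out *Mll1KO* b gave calls for Ttr (-0.54, limma adjusted p = 0.0313) and Pmel (-2.03, limma adjusted p = 0.0451), and leaving out WT b gave 2 calls of the list, Pmel among them (-2.23, limma adjusted p = 0.0123). An equal rod sum called 9401 of all 11339 genes lower and 3 of this list, with Ttr (limma adjusted p = 0.0094) and Pmel (limma adjusted p = 0.00928) among them. WT a, WT c and *Mll1KO* b were thus the libraries with more pigment cell transcripts, and WT a and WT c were also those with high Acta2. In an alternative chosen after seeing the data, these 3 libraries were left out, with the lone WT library assumed to vary like the others. Kdr (-0.74, limma adjusted p = 0.00423), Vegfa (limma adjusted p = 0.0415) and Slco1a4 (limma adjusted p = 0.0102) still passed, whereas Cldn5 (-0.30, limma adjusted p = 0.0989) and Flt1 (0.30, limma adjusted p = 0.0942) no longer did, beside 806 genes called in the whole table instead of 2643. Among the 3 libraries kept, the pigment epithelium sum was 114 RPKM in WT b and 98.7 and 102 RPKM in *Mll1KO* a and c. The haemoglobin sum was 80.9 RPKM in WT b and 134 and 212 RPKM in *Mll1KO* a and c, so haemoglobin transcripts were not evened out.

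**Figure D3:**
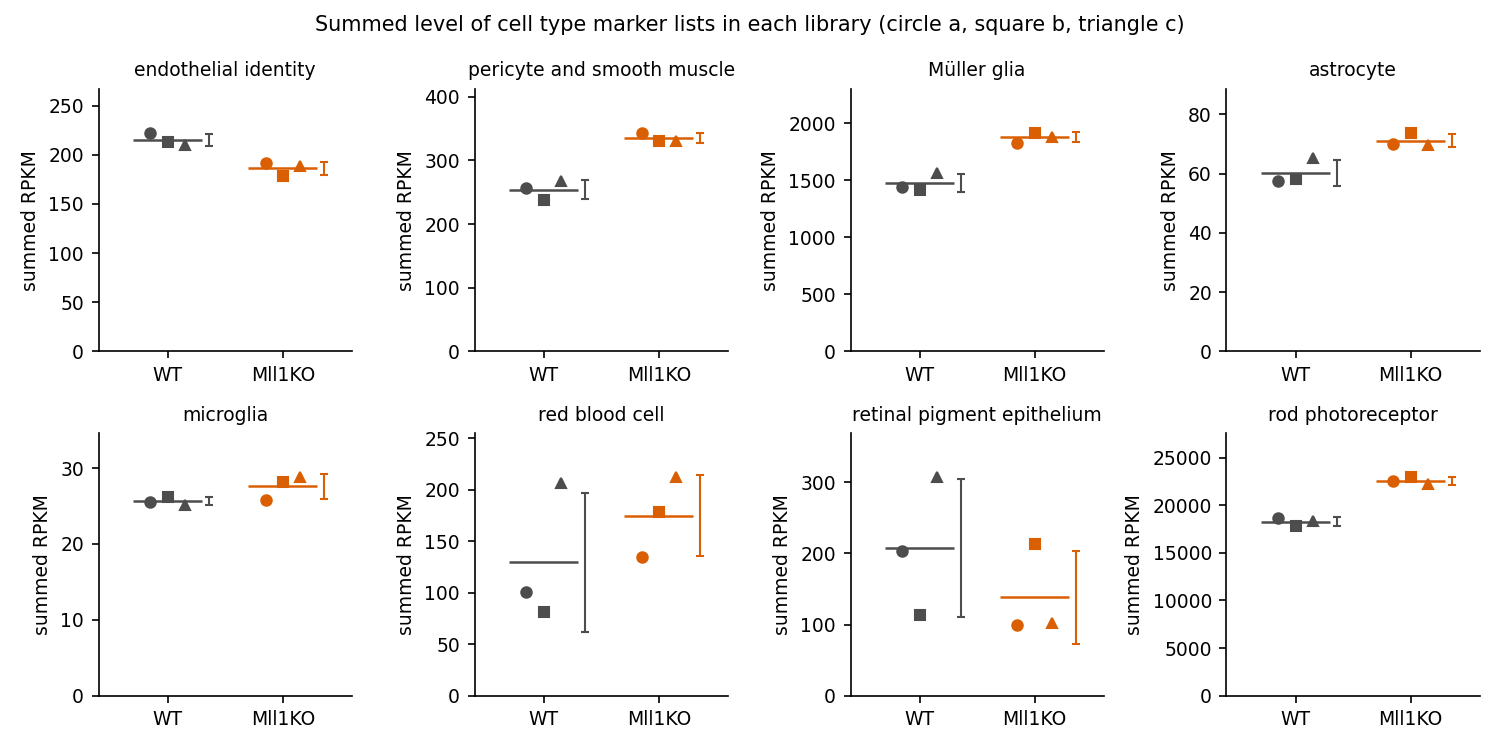
Summed RPKM of marker lists for 8 cell types (vertical axes, each starting at 0) in each WT and Mll1KO library. Of the pericyte and smooth muscle sum, at 132% of WT, 81.0% is Vtn. Points are libraries, horizontal lines are group means and bars are the SD (n = 3); the endothelial sum is lower in all 3 Mll1KO libraries, at 86.6% of WT, the Müller glia and rod sums are higher, at 127% and 123% of WT, and the red blood cell and pigment epithelium sums vary within both groups.

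Rod photoreceptor genes were used as another scale. Of 14 rod genes, 10 were called higher and 1 lower (71.4% and 7.14%, beside 8.81% and 14.5% of all genes), with a median log2 fold change of 0.24. The count called higher was 6 without *Mll1KO* b and 2 with the 3 libraries poor in pigment genes. The rod genes summed to 18700, 17830 and 18310 RPKM in WT and 22500, 22970 and 22200 RPKM in *Mll1KO*. If each library is instead scaled to an equal rod sum, the median over all genes moves to -0.30, and the vessel genes shift with it. Of the 114 measured genes of the vessel lists, 6 are then called higher and 86 lower, beside 230 and 9401 of all 11339 genes. On that scale Kdr was at -1.02, Cldn5 at -0.64, Vegfa at -0.60, Esam at -0.45, Pecam1 at -0.41 and Tspan12 at -0.39, all called lower, Slco1a4 was still called higher at 0.29 (limma adjusted p = 0.00376), and Flt1 (0.05), Fzd4 (-0.02) and Tek (-0.06) were not called. Scaling by median ratio changes the call of Tek alone among the 10 genes but evens out the table, since 53.1% of its calls were then rises, against 37.8% of the 2643 calls (999 higher and 1644 lower) on the deposited scale.

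The 10 genes lie on 8 chromosomes of the mouse genome, and all are annotated as protein coding (GRCm38, GENCODE). Kdr (chromosome 5, 75932827 to 75978458, minus strand) and Flt1 (chromosome 5, 147561604 to 147726011, minus strand) share a chromosome at a great distance, as do Tspan12 (chromosome 6, 21771395 to 21852515, minus strand) and Slco1a4 (chromosome 6, 141805440 to 141856199, minus strand). Vegfa lies at chromosome 17, 46016993 to 46032369, minus strand, and Cldn5, a gene of 1 exon, at chromosome 16, 18776847 to 18778262, plus strand. Pecam1 lies at chromosome 11, 106654217 to 106750628, minus strand, and Esam at chromosome 9, 37528078 to 37538319, plus strand. Fzd4 lies at chromosome 7, 89404355 to 89413134, plus strand, and Tek at chromosome 4, 94739289 to 94874976, plus strand. Of their exon bases, only those of Tspan12 overlap another annotated gene, 2.96% of them with a gene on the other strand.

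Promoter sequences were read for what the genes share beyond their names. RefSeq (GRCm38.p6) gave 9 promoters, of 250 bases before to 50 bases after a start, for 8 of the 10 genes, not for Pecam1 or Esam. MLL1 has a CXXC domain that binds CG pairs free of methylation, so CG was counted. A form of the ETS site, CGGAAG, and a form of the hypoxia response core, ACGTG, were also counted, on both strands. The CG count ran from 1 in Slco1a4 and 3 in Tek to 29 in Flt1 and 32 in Fzd4, with a median of 12 beside 7 over all 32851 promoters of the same length. Among the called genes, those higher had 1 (Slco1a4) and 29 (Flt1) CG. Those lower had 12 (Cldn5), 16 and 10 (the starts of Vegfa) and 19 (Kdr). A relation of CG count to direction was not tested on so few genes. The reference promoters belong to 27025 genes, not only to the 11339 genes with values here. No promoter of these genes held CGGAAG, which 16.9% of all promoters hold, and 1 of the 9 held ACGTG, which 19.6% of all hold. That match was read as CACGT at position 40 of the downstream Vegfa start. A match of letters shows neither binding nor use of a start. Other forms of the ETS and hypoxia sites were not searched, so their absence is not shown.

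The promoters of the VEGF ligand and of its called receptors, which moved in opposite directions, and of Slco1a4, which rose most among the 10 genes, are printed to show sequences with many and with few CG, 5′ to 3′ on the gene's strand with CG and ACGTG (or CACGT) in capitals. GC content was 62.0% at the upstream Vegfa start (chr17:46032328-46032627), 59.3% at the downstream Vegfa start (chr17:46025114-46025413), 60.7% for Kdr (chr5:75978406-75978705), 70.7% for Flt1 (chr5:147725962-147726261) and 40.7% for Slco1a4 (chr6:141856171-141856470), all on the minus strand, beside a median of 52.7% over all promoters.
Vegfa, upstream start: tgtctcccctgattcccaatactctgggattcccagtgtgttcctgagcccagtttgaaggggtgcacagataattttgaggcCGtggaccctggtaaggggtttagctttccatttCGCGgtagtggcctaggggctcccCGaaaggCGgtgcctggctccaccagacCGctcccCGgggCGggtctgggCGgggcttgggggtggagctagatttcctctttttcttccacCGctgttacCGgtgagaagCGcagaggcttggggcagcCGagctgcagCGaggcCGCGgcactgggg
Vegfa, downstream start: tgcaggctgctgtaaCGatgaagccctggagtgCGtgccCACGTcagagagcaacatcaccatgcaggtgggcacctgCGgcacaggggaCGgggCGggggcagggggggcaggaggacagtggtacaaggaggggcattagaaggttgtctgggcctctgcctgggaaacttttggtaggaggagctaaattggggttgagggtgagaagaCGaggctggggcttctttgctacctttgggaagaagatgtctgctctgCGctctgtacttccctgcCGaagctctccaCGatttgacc
Kdr: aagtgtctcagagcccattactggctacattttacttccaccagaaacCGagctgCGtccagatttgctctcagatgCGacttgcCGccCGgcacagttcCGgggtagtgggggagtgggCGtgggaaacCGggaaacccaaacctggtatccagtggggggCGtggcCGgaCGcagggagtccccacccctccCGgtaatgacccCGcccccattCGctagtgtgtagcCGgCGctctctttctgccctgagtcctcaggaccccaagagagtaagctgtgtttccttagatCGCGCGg
Flt1: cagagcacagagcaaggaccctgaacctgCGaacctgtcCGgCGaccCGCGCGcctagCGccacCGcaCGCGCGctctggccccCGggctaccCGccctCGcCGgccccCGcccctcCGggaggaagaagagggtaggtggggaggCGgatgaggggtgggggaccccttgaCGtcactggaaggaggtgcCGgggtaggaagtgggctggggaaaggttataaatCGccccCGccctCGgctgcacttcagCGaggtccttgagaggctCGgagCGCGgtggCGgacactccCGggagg
Slco1a4: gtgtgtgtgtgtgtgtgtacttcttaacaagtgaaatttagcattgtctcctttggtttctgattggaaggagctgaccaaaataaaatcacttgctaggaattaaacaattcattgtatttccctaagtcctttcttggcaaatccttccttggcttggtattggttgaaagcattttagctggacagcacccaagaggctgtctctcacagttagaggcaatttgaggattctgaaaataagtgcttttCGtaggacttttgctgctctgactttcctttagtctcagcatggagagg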

How the data were processed

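The deposited RPKM values of 6 whole-retina libraries (3 *Mll1KO*, 3 WT, P14) were used for 11339 genes. Per the submitters' processing notes, the authors aligned reads to mm10 (STAR 2.0.4b) and took gene counts from featureCounts 1.45, and genes of low CPM were filtered out. RPKM values are given per gene and library by the authors, and edgeR 3.17.9 is listed for the comparison the authors made. The table also holds the authors' own log fold change, log CPM, p and FDR, which were not used. Whole reads per gene were fitted to RPKM for 100% of genes, within 0.05 reads. The annotated exon length fitted for 53.39% of genes, and for the others a fitting length was searched. Kdr, Flt1, Vegfa, Cldn5, Slco1a4, Fzd4 and Tspan12 are among the others, so their read counts rest on a fitted length. A gene had at least 90 reads in each library, a floor partly set by requiring accepted lengths to pass the low-CPM filter.

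Because the unit is RPKM, edgeR was not used here. Genotypes were compared with limma 3.58.1 (R 4.3.3) with a variance trend on log2(RPKM + 1), and p was adjusted over all genes by Benjamini-Hochberg, with a threshold of 0.05. The fit was tested on simulated data. With true changes of 0.5 on the log2 scale, 98% of 100 genes were called, and 5.71% of calls were unchanged genes. Summaries were made in Python 3.11.15 (pandas 2.3.3, numpy 2.4.6, scipy 1.17.1), and figures with matplotlib 3.10.9.

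The 10 genes and the 16 gene lists were chosen with earlier results of these data known. Single genes named were drawn from these 10 genes, Kmt2a, up to 3 called genes per direction with the smallest adjusted p and the 2 most abundant genes of each list, the genes with the highest and lowest fold change in each vessel list, the measured ligands and receptors of the VEGF, norrin and angiopoietin systems, and the 5 genes most like the endothelial mean profile and like Vegfa. Some genes under this rule, all markers of other cell types, are not described here. Alternatives tried were pseudocounts of 0.1 and 5, only genes with a mean of at least 1 RPKM, median-ratio, TMM and upper-quartile factors, an equal rod sum, limma-voom on recovered reads, leaving out each library in turn, the replicate letter as a term, and a set of 3 libraries chosen after seeing the data. The replicate letters do not pair the libraries: values of equal letters, after removal of group means, gave r of -0.0395, -0.19 and -0.00714.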

Additional observations from a re-analysis of the deposited data

How the results depend on the processing

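Among the 10 vessel genes, 2 were called higher and 3 lower. Kdr, Vegfa and Slco1a4 kept their calls in all 16 alternatives, Cldn5 in 15 and Flt1 in 14. Pseudocounts, the minimum of 1 RPKM and limma-voom changed no call of the 10 genes. The p-values measure spread between 3 libraries per group, and whole-retina RNA does not separate cell number from RNA per cell.

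Scaling to an equal rod sum moved most counts. It gave 1 of the 10 genes called higher and 6 lower, 230 genes of the whole table higher and 9401 lower, and 6 genes of the vessel lists higher and 86 lower. The calls of Flt1, Slc16a1, Ddit4 and Cxcl12 were among those lost. Signs turned for Fzd4 (-0.0185), Tek (-0.0573), Bsg (-0.1037), Slc2a1 (-0.2026), Ptprb (-0.0804), Jag1 (-0.1979), Hey1 (-0.157), Epas1 (-0.0047), Ldha (-0.2673), Sparc (-0.201), Sema3f (-0.1918), Slc1a2 (-0.1868), Gja1 (-0.2444), Cnga1 (-0.0315), Prph2 (-0.017) and Lrp5 (-0.1728).

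With RLE, TMM and upper-quartile factors, in this order, signs turned for Dvl1 (0.0256, 0.0232 and 0.0253), Nrp2 (0.0149, 0.0131 and 0.0148) and Lrp6 (0.0185, 0.0163 and 0.0183), all near 0. Tek, Ptprb and Sema3f were called higher and Fam206a lost its call. Over the vessel lists 20, 20 and 21 genes were called higher and 20 lower each time.

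With only WT b and *Mll1KO* a and c, an alternative chosen after seeing the data, 1 of the 10 genes was called higher, 398 genes of the table were higher and 408 lower, and 11 genes of the vessel lists were higher and 7 lower. Of the single genes named by the rule, 30 lost their call, among them Cldn5, Flt1, Apcdd1, Nkd1 and Dvl3. Acta2 (0.1463), Vegfb (0.0911) and Nrp2 (0.0633) turned sign.

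Leaving out each library in turn gave 1030 to 1559 genes called lower. Ranges that crossed 0 were -0.0492 to 0.0266 for Dvl1, -0.0058 to 0.1699 for Jag1, -0.0239 to 0.0773 for Ldha, -0.0876 to 0.2291 for Gja1, -0.1494 to 0.0061 for Vegfb and -0.0422 to 0.0113 for Nrp2. Fzd4 was called without WT a (0.29) and was lowest without WT b (0.14).

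With the replicate block, 895 genes of the table were called higher and 1347 lower, and the same 5 of the 10 vessel genes were called.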
